A study of Mus musculus with 610 samples.

Results

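The cells described here are DN1d thymocyte progenitors of B6.Tcrd-/- mice, which lack a functional T cell receptor delta chain gene. They are the 86 cells of 610 in the data whose name marks them as Tcrd-/- DN1d, all from 1 run. Thymus cells of mice at postnatal day 7 to 10 were sorted as live, negative for the delta receptor chain and lineage markers, CD44+, CD25-, CD24+ and cKit-. Each captured cell gave 1 threshold cycle for each of 48 quantitative PCR assays. The mutant strain is B6.129P2 with the Tcrd tm1Mom allele, and the comparison populations were B6 DN1d (C57BL/6J mice, same gate and age, 223 cells in 3 runs of 72, 70 and 81), B6 DN2 (CD44+ CD25+ cKit+, same age, 78 cells in 1 run) and Rag1-/- cKit- cells (no CD24 gate, postnatal day 0 to 2, 223 cells in 3 runs of 89, 52 and 82).

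DN1d cells are CD44+ CD25- cells that carry CD24 and little or no cKit. They are studied as precursors of interleukin-17 producing gamma delta T cells (Tgd17), whose development depends on the transcription factors SOX13, SOX4 and MAF, among others. Those cells use particular receptor gene segments, rearranged in the thymus, such as Vγ2 joined to Jγ1 (Vg2-Jg1) and Vδ4 joined to Jδ1 (Vd4-Jd1). A germline loss of the delta chain leaves the gene segments free to rearrange but gives no delta chain for a surface receptor.

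Several limits of these cells as a model hold for every result. There was 1 run, and the labels do not say how many animals it drew on. Each run held cells of 1 group, and run therefore cannot be told apart from genotype or stage. The panel has no assay for the deleted delta chain constant region, Kit, or the genes of CD25, CD24 or CD44, so the genotype and the gate could not be checked. The gate against the delta chain can remove receptor-bearing cells from B6 mice, and what it removed from the mutants was not measured.

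A Ct below 24 was taken as detected. The level of an assay is 24 minus its Ct, in PCR cycles, with 0 for not detected. Levels were compared between cells or runs for the same assay, never between assays. In the 86 cells, 2657 of 4128 reactions (64.4%) were detected, and 52 of them (1.96%) had a level under 2. The cells had 14 to 37 assays detected, with a median of 32. Their mean was 30.9, against a mean per run of 19.8 ± 0.528 (SD, n = 3 runs) in B6 DN1d and of 28.5 in the DN2 run. Gapdh, the reference gene, had a mean level of 15.1 in Tcrd-/- DN1d, 14.6 ± 0.458 (SD, n = 3 runs) in B6 DN1d and 15.2 in DN2. The larger number of assays detected therefore stood beside every difference from B6 DN1d below, and its part in them was not tested. Shares of cells carry exact (Clopper-Pearson) 95% intervals, which cover counting error only and not the spread between runs or animals.

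Most of the panel was detected in most cells. Of the 48 assays, 17 were detected in at least 90% of the 86 cells, 4 of them in all, 18 in 50% to under 90%, 5 in 10% to under 50%, 6 in under 10%, and 2 in none. The 4 in all cells were Ets1, Gata3 and Sox4, which encode transcription factors, and Gapdh. The 2 in none were Vd5-Jd1, another delta junction, and Csf1r, the macrophage colony stimulating factor receptor. For a count of 0 the limit given is 3 cells of the total, here a share of up to 3.49%.

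**Figure D1:**
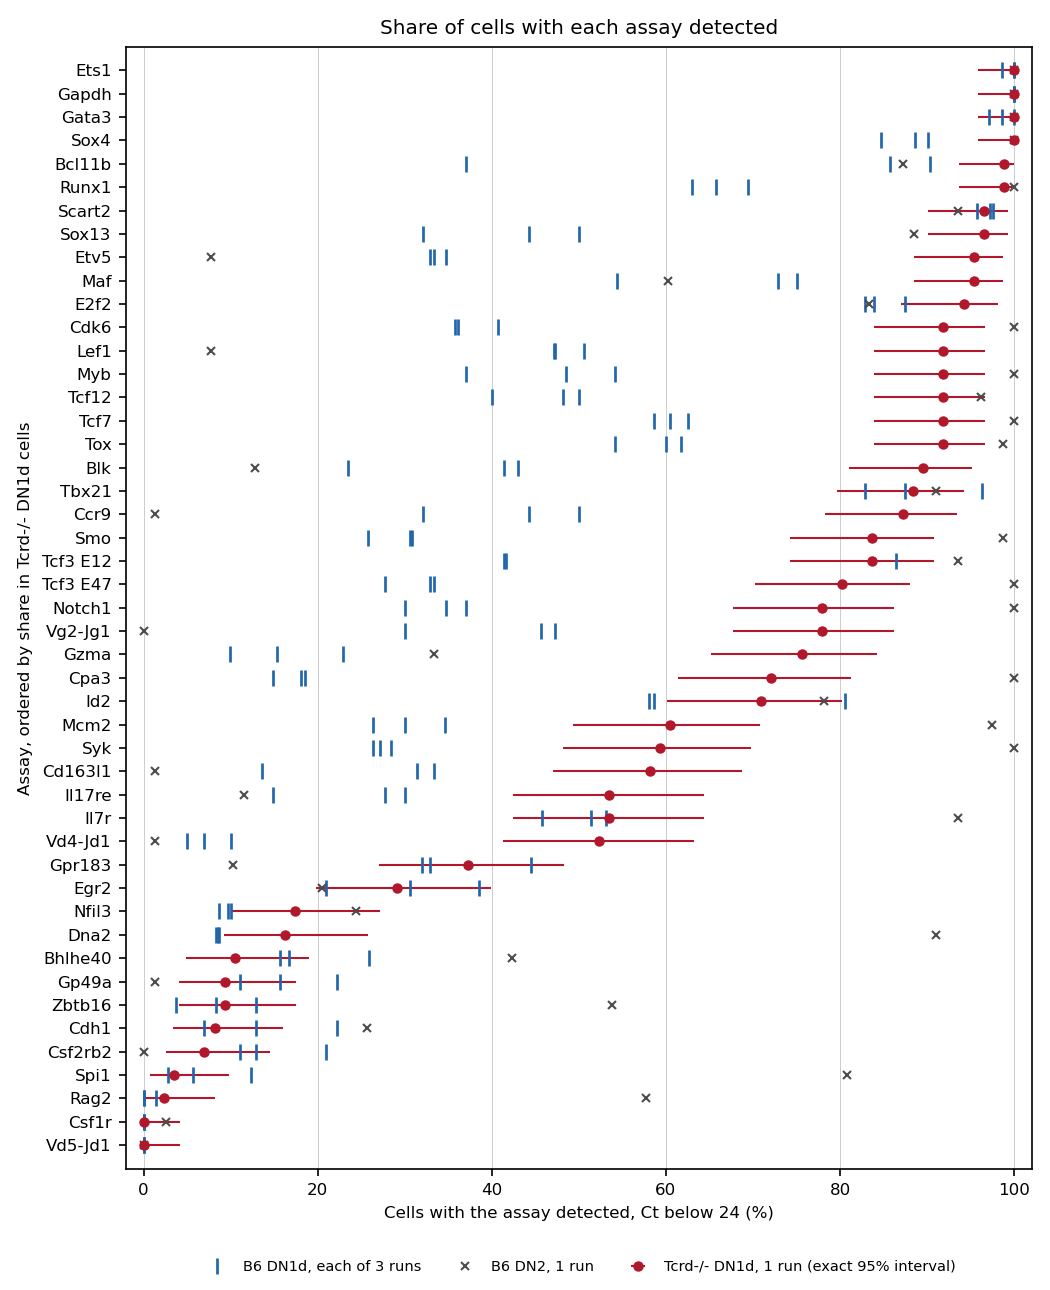
Share of cells (horizontal axis, %) with each assay detected (vertical axis, ordered by the share in Tcrd-/- DN1d). Red points with bars are the 86 Tcrd-/- DN1d cells with the exact 95% interval, blue ticks the 3 B6 DN1d runs and grey crosses the DN2 run. Sox13 reached 96.5% in Tcrd-/- DN1d, above all 3 B6 DN1d runs at 50%, 44.3% and 32.1%.

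The 5 genes given as markers of the population were found in most cells, apart from the Vd4-Jd1 junction. Sox13 was detected in 83 cells (96.5%, interval 90.1 to 99.3), Etv5, an ETS family transcription factor, in 82 (95.3%, 88.5 to 98.7), and Blk, a SRC family kinase, in 77 (89.5%, 81.1 to 95.1). Cpa3, a mast cell protease that early progenitors also express, was detected in 62 cells (72.1%, 61.4 to 81.2). Vd4-Jd1 was detected in 45 cells (52.3%, 41.3 to 63.2). All 5 markers were found together in 32 cells (37.2%), 4 of them in 38 cells (44.2%), and none in 1 cell. In the 3 B6 DN1d runs all 5 were found in 1, 2 and 1 cells, and no marker in 32, 30 and 39 cells.

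A core of 6 assays was shared by most cells. The kinase gene Blk and the transcription factor genes Sox13, Etv5, Maf, Sox4 and Myb were detected together in 76 of 86 cells. Bcl11b, the factor of T lineage commitment, and Runx1 were each detected in 85 cells, and Tcf7, Lef1 and Tox, of the HMG box family, in 79 each. Rag2, of the recombinase, was detected in 2 cells (2.33%, 0.283 to 8.15), although receptor junctions were found in most cells. The innate lymphoid factor gene Zbtb16 was detected in 8 cells (9.30%, 4.10 to 17.5) with levels from 4.54 to 6.05, and Nfil3, another factor of that list, in 15 (17.4%, 10.1 to 27.1).

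A division among the cells followed Blk. The 9 cells without Blk had 14 to 32 assays detected with a median of 22, while the 77 cells with Blk had 26 to 37 with a median of 32. Mean Gapdh level was 14.8 ± 0.664 (SD over the 9 cells) without Blk and 15.2 ± 0.610 (SD over the 77 cells) with it. This split was chosen after the values were seen, its cells come from 1 run, and it is given as a description with no test.

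Cells without Blk carried genes that few of the other cells had, a division also seen in the B6 DN1d runs described below. Gp49a, a receptor gene of mast and myeloid cells, was detected in 7 of 9 cells without Blk and in 1 of 77 with it. Csf2rb2, a receptor chain for interleukin-3, was found in 5 of 9 and 1 of 77, and Cdh1, which encodes E-cadherin, in 6 of 9 and 1 of 77. Bhlhe40, a basic helix-loop-helix repressor, was found in 6 of 9 and 3 of 77, and Spi1, which encodes PU.1, in 3 of 9 and 0 of 77. All 9 cells without Blk had at least 1 of these 5 assays and 7 had 2 or more, against 4 and 1 of the 77 cells with Blk.

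The same cells lacked many assays found in most of the others. Myb and Tcf7 were each detected in 2 of the 9 and in all 77 of the others. Ccr9, a thymus homing receptor, Smo, the hedgehog signal transducer, Gzma, which encodes granzyme A, Vg2-Jg1 and Mcm2, a subunit of the replicative helicase, were each found in 1 of 9. Of the 77 cells with Blk, 74 had Ccr9, 71 Smo, 66 Vg2-Jg1, 64 Gzma and 51 Mcm2. Bcl11b was found in all 9, Scart2, a scavenger receptor, in 8, Sox13 in 6 and Etv5 in 5. Sox13 and Etv5 levels in these cells lay below the bulk of the cells with Blk, as the plot of the pair by Blk status shows. Vd4-Jd1 was detected in 2 of the 9.

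Of the myeloid assays apart from Cpa3 (Spi1, Csf1r, Csf2rb2 and Gp49a), 3 of 4 were detected in the cells without Blk and 2 of 4 in the cells with it. Their summed level ranged from 0 to 31.7 with a median of 19.1 in the 9 cells without Blk, and from 0 to 18.0 with a median of 0 in the 77 others. Csf1r was at 0 in both. Cpa3, of the same list, went the other way, with 3 of 9 cells without Blk and 59 of 77 with it. The part of other cell types in these 9 cells was not tested, and no B cell assay was in the panel. The 1 cell with Blk and 3 of the 5 assays had the lowest Blk level of all 77, 7.61, and lacked Ccr9, Lef1, Tox and Tcf12, with 32 assays detected and a Gapdh level of 15.5. No doublet caller was run on 48 assays.

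**Figure D2:**
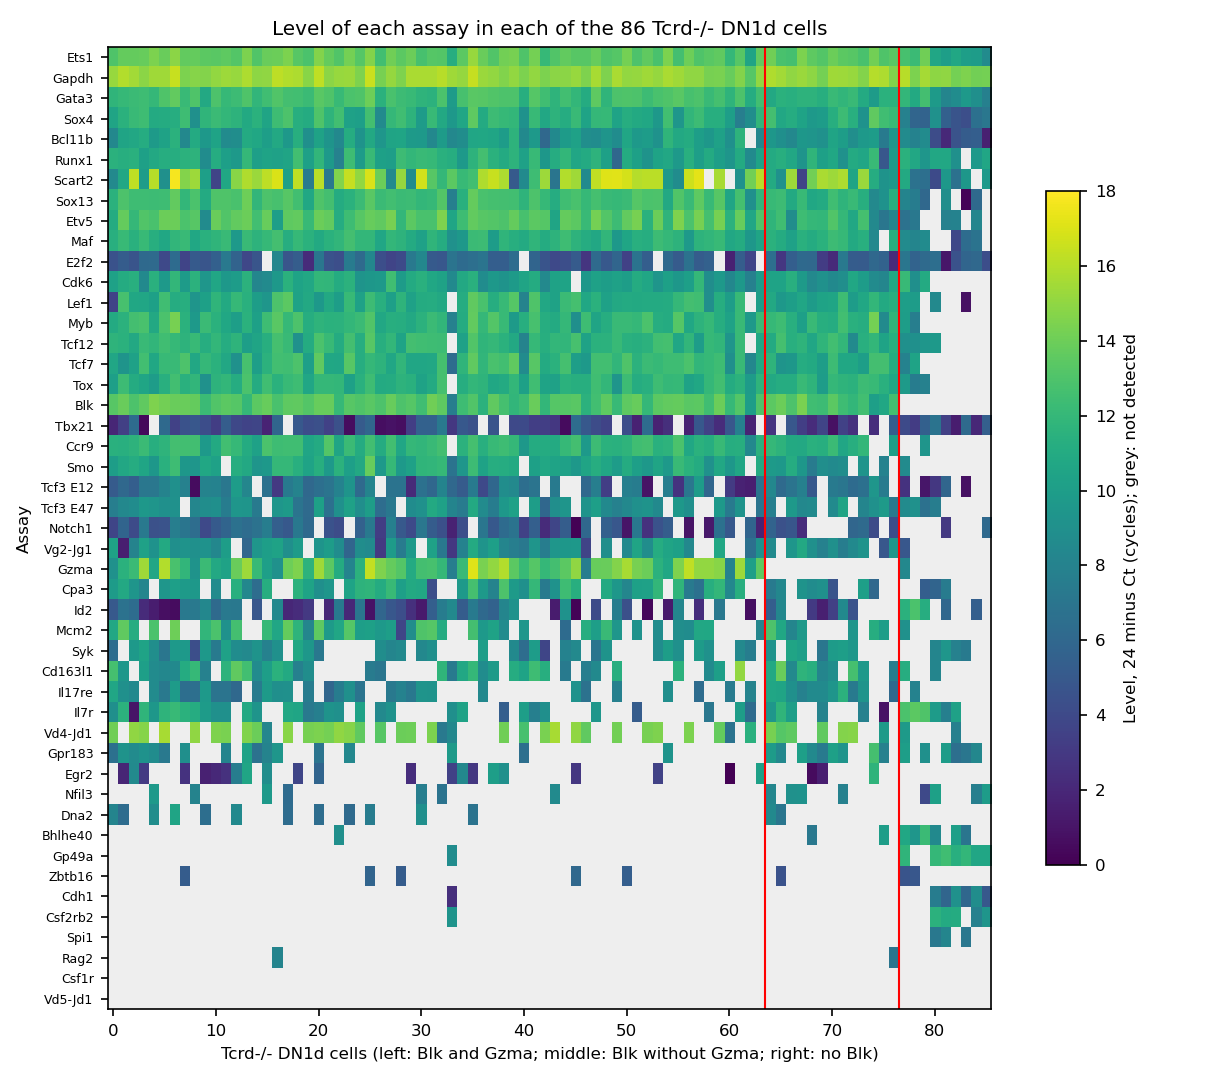
Level (24 minus Ct, in cycles, colour) of each reported assay (rows) in each of the 86 Tcrd-/- DN1d cells (columns), with undetected reactions in grey. Red lines separate 64 cells with Blk and Gzma, 13 with Blk and without Gzma, and 9 without Blk, where Gp49a, Csf2rb2, Cdh1, Bhlhe40 and Spi1 gather.

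Cells without Blk were also present in each B6 DN1d run, 41, 41 and 62 of them, and there the same 5 assays were tested against the mutant cells without Blk. Gp49a was detected in 19.5%, 26.8% and 27.4% of the B6 cells without Blk, against 77.8% (7 of 9 cells, interval 40 to 97.2) in the mutants. Cdh1 was detected in 12.2%, 22% and 27.4% of them, against 66.7% (6 of 9 cells). Over the 44 assays compared in cells without Blk, no difference passed the threshold (limma over runs, Benjamini-Hochberg adjusted p under 0.05, background 0%), with 18 assays at an unadjusted p under 0.05. The lowest adjusted p was 0.0647 (limma), which several assays shared, Gp49a and Sox13 among them. Gapdh shared it too, although it was detected in 100% of the cells without Blk in every run compared. Its difference of logits, -1.61 (unadjusted p = 0.0132, limma), came only from the amount added to each side of a share and the numbers of cells. An adjusted p of this size was thus reached here without any difference in share, and Gapdh is among the 18 assays. Sox13 stood at 66.7% against 12.2%, 4.88% and 14.5%.

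Pairs of assays found in the same cells repeated this division. Over the 253 pairs of the 23 assays detected in 10% to 90% of cells, the phi coefficient of detection had a median of 0.0768. The 86 points of each coefficient are cells of 1 run that share input and preamplification, so phi is given without a p. The highest reported pairs were Blk with Ccr9 (0.78, 74 cells with both and 8 with neither), Blk with Smo (0.67, 71 and 8), Ccr9 with Smo (0.59), Gzma with Smo (0.56, 62 and 11) and Blk with Vg2-Jg1 (0.55, 66 and 8). The lowest were Bhlhe40 with Blk (-0.63, 3 cells with both of 9 with Bhlhe40), Bhlhe40 with Ccr9 (-0.55), Bhlhe40 with Notch1 (-0.55, 1 cell with both), Bhlhe40 with Gzma (-0.42), Bhlhe40 with Smo (-0.36) and Gpr183 with Gzma (-0.35). Notch1 encodes the Notch receptor that drives T lineage entry, and Gpr183 an oxysterol-guided migration receptor.

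Within the 77 cells with Blk little of this structure was left. Of the 253 pairs, 31 had a phi above 0.3 and 8 one below -0.3. Of 210 pairs within the cells with Blk, 2 lay above and 2 below, and the range was -0.34 to 0.34. The 210 leave out all pairs of Blk and of the assay not reported, so part of the drop in counts follows from the pairs left out. The 2 above were Dna2 with Mcm2 (0.34) and Id2 with Il17re (0.31), and the 2 below were Gpr183 with Gzma (-0.34) and Bhlhe40 with Ccr9 (-0.31). Blk pairs are not defined there, and Ccr9 and Smo were in 96.1% and 92.2% of these cells. Id2 was often near the limit of detection, with a level under 4 in 21 of the 61 cells that had it. Over all cells the phi of Id2 with Il17re was 0.33, and 0.075 with a Ct below 20 as detection. That of Dna2 with Mcm2 was 0.36 and 0.37.

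**Figure D3:**
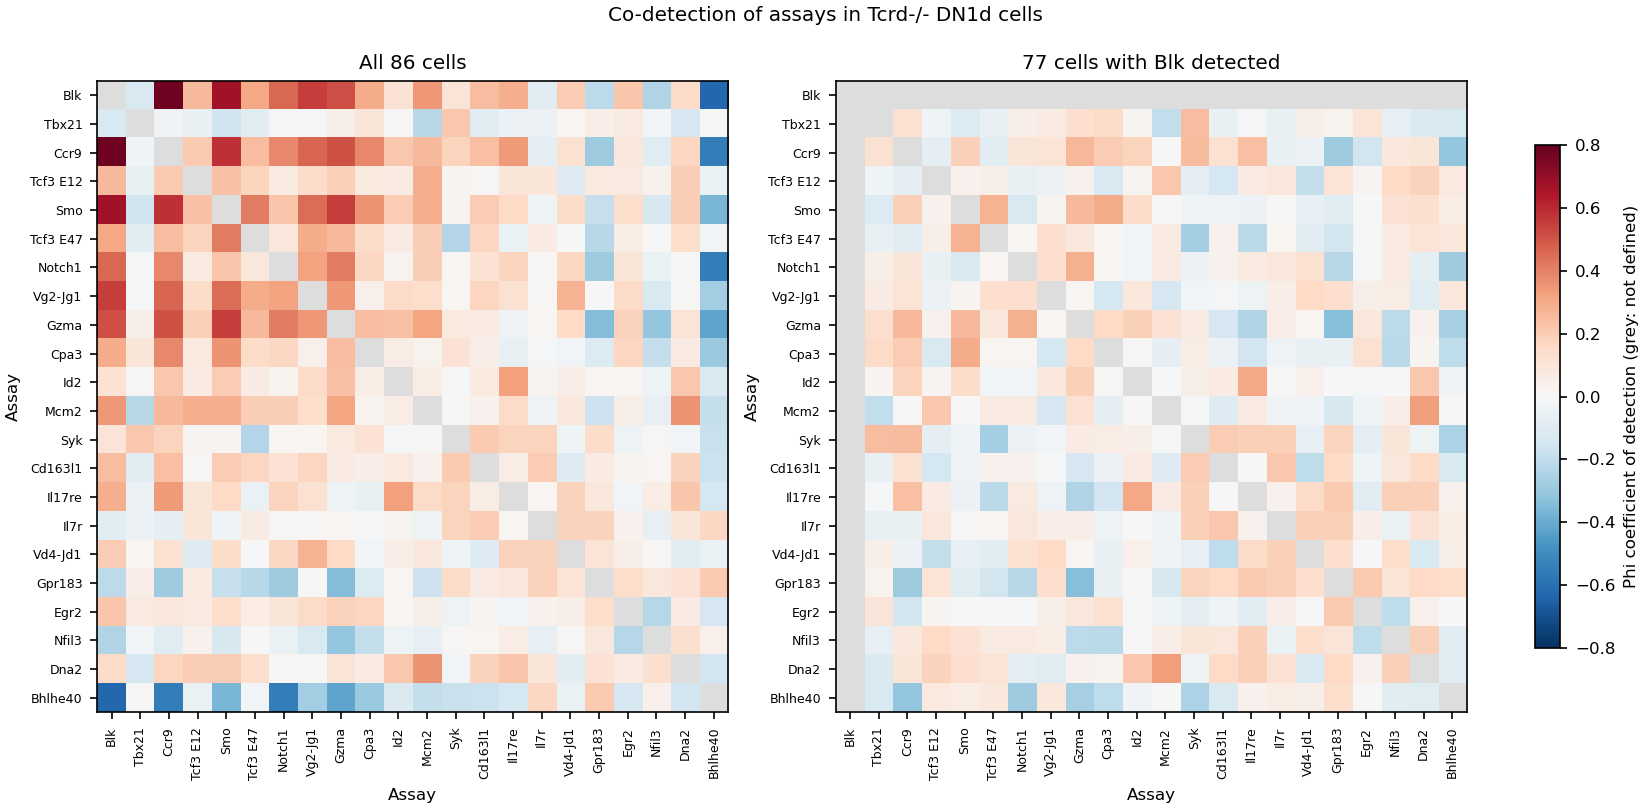
Phi coefficients of detection for pairs of the 22 reported assays found in 10% to 90% of Tcrd-/- DN1d cells (rows and columns, ordered by share), over all 86 cells at left and over the 77 with Blk at right. The block of Blk, Ccr9, Smo, Notch1, Vg2-Jg1 and Gzma at left reaches 0.78 and, for pairs that remain defined, fades at right, where no pair exceeds 0.34.

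The receptor junctions divided the cells into 4 classes. Both Vd4-Jd1 and Vg2-Jg1 were detected in 40 cells (46.5%, 35.7 to 57.6), Vg2-Jg1 alone in 27 (31.4%, 21.8 to 42.3), Vd4-Jd1 alone in 5 (5.81%, 1.91 to 13) and neither in 14 (16.3%, 9.20 to 25.8). In the B6 DN1d runs both were found in 3, 2 and 4 cells, Vg2-Jg1 alone in 31, 19 and 33, and Vd4-Jd1 alone in 2, 5 and 0. Sox13 was detected in all cells of the first 2 classes, in 4 of 5 with Vd4-Jd1 alone and in 12 of 14 with neither. Blk was detected in 39 of 40, 27 of 27, 4 of 5 and 7 of 14.

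Vg2-Jg1 was found more often in cells with Vd4-Jd1 than without, 40 of 45 (88.9%) against 27 of 41 (65.9%). Within the cells with Blk these shares were 90.7% and 79.4%, a smaller gap. In the B6 DN1d runs, with 5, 7 and 4 cells that had Vd4-Jd1, the shares of Vg2-Jg1 with and without it were 60.0% and 46.3%, 28.6% and 30.2%, and 100% and 42.9%. The order of the 2 shares thus differed between B6 runs.

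Where Vd4-Jd1 was detected, its level was high in most cells and lower in the rest. It had a level of 12 or more in 37 of 45 cells and under 12 in 8, with a median of 14.3 and a lowest cell of 6.84. The mean level where detected was 13.3 in Tcrd-/- DN1d, against 9.69, 8.74 and 10.8 in the B6 DN1d runs. Those B6 values rest on 5, 7 and 4 cells.

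Other assays were compared between cells with and without each junction. Within the cells with Blk, 43 had Vd4-Jd1 and 34 did not. Il7r, the interleukin-7 receptor gene, was found in 60.5% with and 41.2% without Vd4-Jd1, and Cd163l1, a scavenger receptor of gamma delta cells, in 53.5% with and 73.5% without. In the B6 runs the order for Cd163l1 was reversed in 2 of 3 runs (100% and 66.7%, 60.0% and 70.8%, 66.7% and 50%), over 4, 5 and 3 cells with the junction. Over all cells, those with Vg2-Jg1 had Blk in 98.5% against 57.9%, Smo in 92.5% against 52.6%, Ccr9 in 95.5% against 57.9% and Gzma in 83.6% against 47.4%, and had Bhlhe40 in 5.97% against 26.3%. Within the cells with Blk, where 11 lacked Vg2-Jg1, the widest gap was that of Vd4-Jd1 itself, 59.1% with and 36.4% without, and Mcm2 was less frequent with Vg2-Jg1, at 63.6% and 81.8%.

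Granzyme A divided the cells that had Blk into 64 with and 13 without Gzma. Gpr183 was found in 17 of 64 (26.6%) and 9 of 13 (69.2%), Il17re, the receptor for interleukin-17C, in 53.1% and 84.6%, and Nfil3 in 10.9% and 30.8%. Notch1 went the other way, with 89.1% and 61.5%, and so did Id2, the inhibitor of E proteins, with 76.6% and 53.8%. Mcm2 was found in 68.8% and 53.8% of these cells. Over all 86 cells its gap was wider, 69.2% of the 65 cells with Gzma and 33.3% of the 21 without. The phi of Gzma with Id2 over all cells was 0.23, and 0.096 with a Ct below 20 as detection.

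The Gzma and Gpr183 opposition was not seen within the B6 DN1d cells that had Blk. There Gpr183 was detected in 30.0%, 18.8% and 37.5% of cells with Gzma and in 14.3%, 7.69% and 36.4% of cells without, over 10, 16 and 8 cells with Gzma. Over all B6 DN1d cells, Gpr183 was less frequent with Gzma in each run, 27.3% against 32.8%, 18.8% against 37% and 37.5% against 45.2%. The test of this difference between the groups is part of the pair test given below, which it did not pass (difference of log odds ratios -1.18, SE 0.831, adjusted p = 0.600, limma).

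Gzma was found more often in cells with Cpa3 than in cells without it. Gzma was detected in 51 of 62 cells with Cpa3 (82.3%) and in 14 of 24 without (58.3%), and where detected its mean level was 13.3 with Cpa3 and 10.8 without. Within the cells with Blk the shares were 86.4% and 72.2%. The B6 DN1d runs had the same order, 50% and 23.8%, 66.7% and 52.2%, and 50% and 40%, over 10, 6 and 4 cells with Cpa3. Among the 51 cells with Blk that had both, Spearman's rho of the levels of the 2 assays was 0.07, given without a p. Smo was also more frequent with Cpa3, 91.9% against 62.5% over all cells and 96.6% against 77.8% in those with Blk, and Nfil3 was less frequent, 12.9% against 29.2%.

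**Figure D4:**
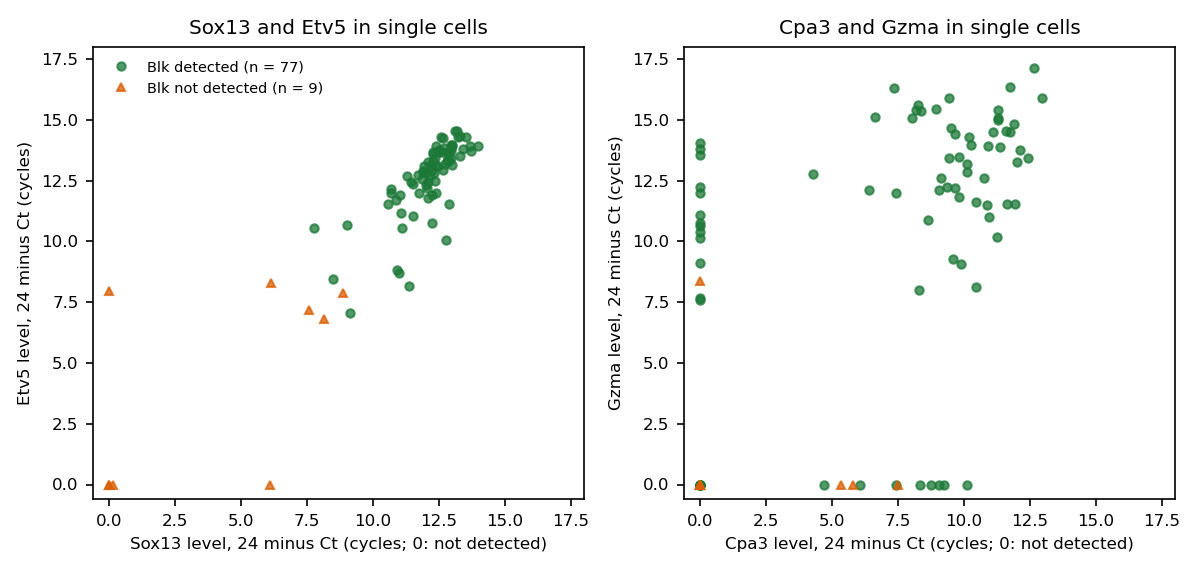
Level (24 minus Ct, in cycles, with 0 for not detected) of Sox13 and Etv5 at left and of Cpa3 and Gzma at right in the 86 Tcrd-/- DN1d cells. Green circles are the 77 cells with Blk and orange triangles the 9 without. Sox13 and Etv5 levels rise together among the cells with Blk (rho 0.81), while Cpa3 and Gzma levels show no such trend among cells with both (rho 0.07).

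The 4 cell cycle assays were not detected evenly. E2f2, an activator of S phase genes, was detected in 81 cells (94.2%) and Cdk6, the cyclin D dependent kinase of G1, in 79 (91.9%). Mcm2 was found in 52 (60.5%, 49.3 to 70.8) and Dna2, a nuclease and helicase of lagging strand synthesis, in 14 (16.3%, 9.20 to 25.8). All 4 were found in 14 cells, 3 in 34, 2 in 30 and 1 in 8.

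Dna2 was found nowhere without Mcm2. The 14 cells with Dna2 all had Mcm2, so that Dna2 was detected in 26.9% of 52 cells with Mcm2 and in 0 of 34 without. Mean Mcm2 level where detected was 12.6 in cells with Dna2 and 9.83 in cells without. The cells with Dna2 had a median of 34 assays against 31 and a mean Gapdh level of 15.7 against 15.0, so both moved with Dna2, and their part was not tested. In the DN2 run Dna2 was found in 71 of 76 cells with Mcm2 and in none of the others, too few of its 78 cells to show an order. The B6 DN1d runs had 3, 1 and 3 cells with Dna2 and no Mcm2. Il17re was found in 78.6% of cells with Dna2 and 48.6% without, and Id2 in 92.9% and 66.7%. The phi of Dna2 with Id2 was 0.21, and 0.031 with a Ct below 20 as detection.

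Cdk6 followed the Blk division. Of the 7 cells without Cdk6, 6 also lacked Blk, and they had a median of 19 assays detected. Over all cells, Tbx21, the T-bet gene, was less frequent with Mcm2, at 82.7% against 97.1%. Tbx21 was often near the limit of detection, with a level under 4 in 41 of the 76 cells that had it. E2f2 was undetected in only 5 cells, all with Blk, Gzma, Notch1 and Vg2-Jg1.

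Among the 77 cells with Blk, levels of 3 transcription factor genes rose and fell together. The rank correlation of level over cells with both assays detected was 0.81 for Etv5 with Sox13 (n = 77 cells), 0.69 for Gata3 with Sox13 and 0.65 for Etv5 with Gata3, beside a median of 0.19 over the 550 pairs with at least 30 such cells. With each level taken relative to Gapdh in the same cell these were 0.81, 0.63 and 0.68. For Etv5 with Sox13 the B6 DN1d runs gave 0.58, 0.54 and 0.85 over 25, 20 and 16 cells. For Gata3 with Sox13 they gave 0.65, 0.57 and 0.27 over 31, 29 and 17 cells, and for Etv5 with Gata3 0.26, 0.45 and 0.59 over 25, 20 and 17 cells. The lowest coefficient was that of Gata3 with Il17re (-0.32, n = 45 cells). These cells share 1 run, and no p is given.

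Scart2 was in nearly all cells of every DN1d run, and its level varied widely in the mutants, from 3.62 to 17.8. It had a level of 12 or more in 49 of 83 cells and under 12 in 34, a cut that was not applied to the B6 runs. Its mean level where detected was 12.6, against 9.76, 8.32 and 10.2 in the B6 DN1d runs and 6.84 in DN2. Bcl11b likewise differed in level where detected, with 9.30 in Tcrd-/- DN1d against 5.46, 5.75 and 4.23 in the B6 DN1d runs, 6.79 in DN2 and 5.49 to 6.44 in the Rag1-/- runs. These were the 2 of 30 assays (background 6.67%) past the threshold for level where detected against B6 DN1d, Bcl11b by 4.15 cycles (SE 0.85, adjusted p = 0.0120, limma) and Scart2 by 3.20 (SE 0.859, adjusted p = 0.0445, limma). Without B6 DN1d run 1 neither passed (adjusted p = 0.0553 and 0.116), and without run 3 the count rose to 10. Bcl11b detection was 90.3%, 85.7% and 37% in the B6 DN1d runs, so the third run stood apart for it.

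Over all cells, assays of most lists were detected in more cells in the mutants than in B6 DN1d, and no assay passed as lower. In limma over the 8 runs, with the logit of the share of cells as the value and the run as the replicate, 26 of 47 assays (background 55.3%) were higher and 0 lower in Tcrd-/- DN1d, also at an unadjusted p under 0.05. A mean per group was fitted, the spread of B6 DN1d and Rag1-/- runs stood in for that of the single runs, and the counting error of a share was not modelled. With mean level as the value, 29 of 47 (background 61.7%) were higher and 0 lower. Of the 11 assays of the Tgd17 list, 9 were higher in detection, and of the 10 of T lineage specification 6 were. The median difference of those lists was 2.34 and 1.92 on the natural logit scale, beside 1.34 over all 47 assays. On the logit scale Etv5 had the widest gap, at 95.3% against 34.7%, 32.9% and 33.3% in the B6 runs (adjusted p = 1.44e-05), followed on that scale by Sox13, at 96.5% against 50%, 44.3% and 32.1% (adjusted p = 3.74e-05). Vd4-Jd1 stood at 52.3% against 6.94%, 10.0% and 4.94% (adjusted p = 0.000255), Vg2-Jg1 at 77.9% against 47.2%, 30.0% and 45.7% (adjusted p = 0.00866) and Gzma at 75.6% against 15.3%, 22.9% and 9.88% (adjusted p = 0.000142). In none of these 5 did the mutant run overlap the B6 runs. The mutant run also lay above every B6 run for E2f2, Dna2, Nfil3, Il7r and Rag2. For Bhlhe40, Gp49a and Csf2rb2 it lay below every B6 run. None of these others passed, so a lack of overlap does not set the 5 apart. For Vg2-Jg1 the separation held over all cells and not among cells with Blk, where the share was 85.7% against 80.6%, 58.6% and 89.5% (adjusted p = 0.723, limma). Its call was also lost among cells with 20 or more assays detected (adjusted p = 0.394, limma). Of the 4 cell cycle assays, Cdk6 (91.9% against 36.1%, 35.7% and 40.7%, adjusted p = 0.000142) and Mcm2 (60.5% against 26.4%, 30.0% and 34.6%, adjusted p = 0.0317) were higher, and E2f2 (94.2% against 87.5%, 82.9% and 84%) and Dna2 (16.3% against 8.33%, 8.57% and 8.64%) did not pass. Runx1, Sox4, Bcl11b, Blk, Tcf12, Myb, Smo, Lef1, Ccr9, Maf, the E47 form of Tcf3, Tox, Tcf7, Notch1, Cd163l1, Syk and Il17re were higher too. Among cells with 20 or more assays detected, Sox4, Bcl11b, Ccr9, Maf, Tox, Tcf7 and Notch1 did not pass. Nor did Cd163l1, Syk, Il17re and Mcm2 among those cells. Mcm2 and Syk did not pass without B6 DN1d run 1 or 2, nor Cd163l1 and Il17re without run 3 (adjusted p from 0.0545 to 0.121).

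Of the 5 myeloid and mast cell assays 1 was higher, Cpa3, at 72.1% against 17.1% ± 2.04 (SD, n = 3 runs, adjusted p = 0.000255). Gp49a (9.30% against 16.3% ± 5.58), Csf2rb2 (6.98% against 15.0% ± 5.27) and Spi1 (3.49% against 6.95% ± 4.90) did not pass.

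The share of cells with Blk itself differed between the groups, at 89.5% against 43.1%, 41.4% and 23.5%, so the comparison was repeated among cells with Blk. This restriction was chosen after the data were seen. Of 45 assays, 5 (background 11.1%) were then higher in Tcrd-/- DN1d and 0 lower. Cdk6 was detected in 98.7% of these cells, against 35.5%, 41.4% and 63.2% in the B6 DN1d runs (difference of logits 4.07, SE 0.779, adjusted p = 0.00427, limma). Runx1 was detected in 100%, against 71%, 62.1% and 78.9% (adjusted p = 0.00427), and Etv5 in 100%, against 80.6%, 69% and 89.5% (adjusted p = 0.00683). Tcf7 (100% against 90.3%, 82.8% and 94.7%, adjusted p = 0.0218) and Lef1 (97.4% against 58.1%, 69% and 78.9%, adjusted p = 0.0409) also passed. In each of the 5 the mutant value lay above all 3 B6 runs, as it did for several assays that did not pass. At 100% (Runx1, Etv5 and Tcf7) the fitted difference depends on the 0.5 added to each side and on the number of cells. Gapdh, at 100% in every run, differed by 1.08 on the logit scale from these alone (adjusted p = 0.332).

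Smo, Cpa3, Vd4-Jd1 and Gzma did not pass in that comparison. Smo stood at 92.2% against 51.6%, 48.3% and 52.6% (adjusted p = 0.0523), Cpa3 at 76.6% against 32.3%, 20.7% and 21.1% (adjusted p = 0.0674), Vd4-Jd1 at 55.8% against 12.9%, 17.2% and 15.8% (adjusted p = 0.120) and Gzma at 83.1% against 32.3%, 55.2% and 42.1% (adjusted p = 0.121). For each of these 4 the mutant share still lay above every B6 run. That was also so for other assays that did not pass, such as Dna2, Tcf12 and Syk, and does not set the 4 apart. Sox13 was detected in 100% against 100%, 100% and 89.5%, and Il17re in 58.4% against 54.8%, 62.1% and 57.9%, within the B6 range.

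B6 DN2 cells, the next stage of the classical pathway, had the nearest number of assays per cell, and against them the panel differed in both directions. This comparison has 1 run on each side, takes its spread from the other groups and shares the mutant run with the B6 DN1d comparison. In detection, 15 of 47 assays were higher (background 31.9%) and 17 lower (background 36.2%) in Tcrd-/- DN1d, 32 in either direction (68.1%), and in mean level 14 were higher (background 29.8%) and 10 lower (background 21.3%). Where a run is at 0% or 100%, the fitted difference depends on the 0.5 added to each side, so the shares are given.

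Receptor junctions and Tgd17 genes were among those higher than in DN2. Vg2-Jg1 was detected in 77.9% of Tcrd-/- DN1d and 0 of 78 DN2 cells, which allows a DN2 share of up to 3.85% (adjusted p = 4.20e-08, limma). Vd4-Jd1 stood at 52.3% and 1.28% (adjusted p = 8.50e-06), Etv5 at 95.3% and 7.69% (adjusted p = 2.30e-07) and Blk at 89.5% and 12.8% (adjusted p = 4.00e-05). Cd163l1 (58.1% and 1.28%), Il17re (53.5% and 11.5%) and Maf (95.3% and 60.3%) were higher as well, giving 6 higher and 1 lower of the 11 Tgd17 assays. Sox13 was at 96.5% and 88.5% (adjusted p = 0.125), but its mean level was 11.3 and 6.33 cycles, a difference of 4.95 (SE 0.761, adjusted p = 0.00462, limma).

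Homing receptors and Gzma were also higher. Ccr9 was detected in 87.2% of Tcrd-/- DN1d and 1.28% of DN2 cells (adjusted p = 5.34e-06), Gpr183 in 37.2% and 10.3%, Gzma in 75.6% and 33.3% (adjusted p = 0.0141) and Lef1 in 91.9% and 7.69% (adjusted p = 3.31e-06). Bcl11b passed at 98.8% and 87.2% (adjusted p = 0.0312), and did not without Rag1-/- cKit- run 1 (adjusted p = 0.185) or run 2 (0.157). Gp49a (8 of 86 and 1 of 78 cells) and Csf2rb2 (6 of 86 and 0 of 78) passed on few cells.

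Progenitor and replication genes were lower than in DN2. All 3 progenitor assays were lower, Cpa3 with 72.1% and 100% (adjusted p = 5.34e-06), Spi1 with 3.49% and 80.8% (adjusted p = 7.06e-06) and Myb with 91.9% and 100% (adjusted p = 0.000664). Of the 4 cell cycle assays 3 were lower, Dna2 with 16.3% and 91% (adjusted p = 2.98e-05), Mcm2 with 60.5% and 97.4% (adjusted p = 0.000148) and Cdk6 with 91.9% and 100% (adjusted p = 0.000832), while E2f2 stood at 94.2% and 83.3% (adjusted p = 0.119). The mean Cdk6 level was 9.32 and 13.8 cycles (adjusted p = 0.0338), a call that was lost without B6 DN1d run 1, 2 or 3 (adjusted p from 0.0507 to 0.0656).

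Rag2 was detected in 2.33% of Tcrd-/- DN1d and 57.7% of DN2 cells (adjusted p = 3.77e-05). Syk, a kinase of receptor signalling, stood at 59.3% and 100%, Notch1 at 77.9% and 100%, Il7r at 53.5% and 93.6%, and Zbtb16 at 9.30% and 53.8%, all lower (adjusted p from 1.74e-06 for Syk to 0.00406 for Zbtb16). The E47 form of Tcf3, an E protein gene, was at 80.2% and 100%, Tcf7 at 91.9% and 100%, Smo at 83.7% and 98.7%, Tox at 91.9% and 98.7%, and Bhlhe40 at 10.5% and 42.3%. Csf1r also passed as lower, but on 0 of 86 and 2 of 78 cells (2.56%), below the share of up to 3.49% that 0 of 86 allows. Of the 10 T lineage specification assays, 2 were higher, 4 lower and 4 did not pass.

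**Figure D5:**
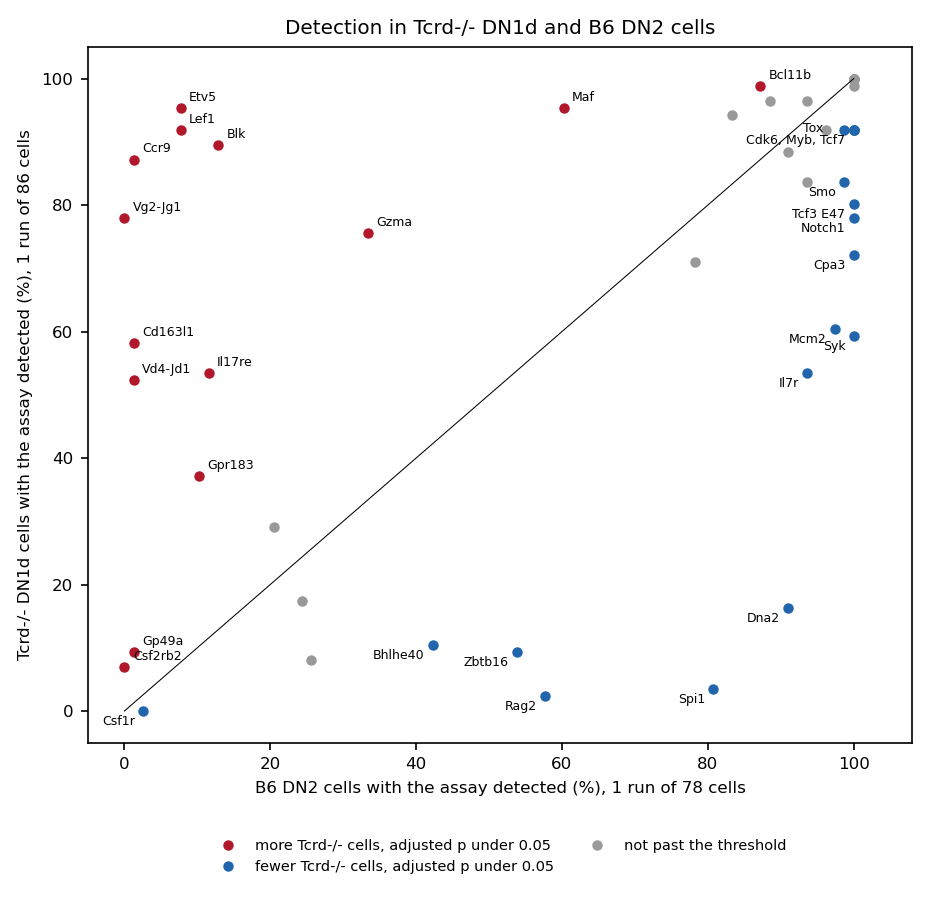
Share of cells with each reported assay detected in the B6 DN2 run (horizontal axis, %) and in the Tcrd-/- DN1d run (vertical axis, %), with the line of equal shares. Red and blue points passed an adjusted p under 0.05 in limma over runs. Vg2-Jg1, Ccr9 and Etv5 lie at upper left, with 77.9%, 87.2% and 95.3% against under 8% in DN2, and Spi1, Dna2 and Rag2 at lower right.

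The co-detection of pairs was compared between Tcrd-/- DN1d and the 3 B6 DN1d runs by the natural log odds ratio in each run. Of 190 pairs of assays found in 10% to 90% of cells of both groups, 0 were higher and 2 lower (background 1.05%), with 23 pairs at an unadjusted p under 0.05. Bhlhe40 with Notch1 had a log odds ratio of -3.49 in Tcrd-/- DN1d, against -0.03, -0.60 and -1.09 in the B6 runs (difference -2.91, SE 0.831, adjusted p = 0.0485, limma). The SE was the same for all 190 pairs, and the counting error of the cells behind each ratio was not modelled. Bhlhe40 was detected in 1 of 67 mutant cells with Notch1 and in 8 of 19 without. The call was lost without B6 run 1 (adjusted p = 0.464) or run 2 (adjusted p = 0.284).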

How the data were processed

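Per the labels' protocols, single cells were captured and lysed on a Fluidigm C1, reverse transcribed, preamplified for 18 cycles with pooled primers and read by EvaGreen quantitative PCR of 30 cycles. The authors' deposited table holds other values than counts, namely a threshold cycle (Ct) without normalisation for every assay in every cell. The sources used here do not say how Ct was called or who set its ceiling of 24. Detection was a Ct below 24, and level 24 minus Ct. Depth per cell is the number of assays detected.

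The run was the replicate. Shares (empirical logit, 0.5 added to each side), mean levels, levels where detected (assays with at least 5 cells in every run) and pair log odds ratios were fitted with limma 3.58.1 in R 4.3.3, with Benjamini-Hochberg adjustment over all assays or pairs tested and a threshold of 0.05. The scripts were tested on simulated data. Nothing says that runs came from separate animals, so p-values measure only their spread, part of which may be technical. Intervals came from scipy 1.17.1, tables from pandas 2.3.3 (Python 3.11.15) and plots from matplotlib 3.10.9.

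The cells, markers, lists and tests were chosen with earlier results of these data known, and the split by Blk was added after the data were seen. Named between groups were up to 25 assays past the threshold, by size of difference, besides the markers, Vg2-Jg1, Gzma and the cell cycle assays, always. Within the population they were the 10 highest and lowest pairs and the 5 widest differences each way per split, of which those with the widest gaps are given. The cell type lists were Tgd17, T lineage, progenitor, innate lymphoid, type 1 effector, myeloid and mast cell, cell cycle, junctions, receptor signalling and homing receptors. A further assay is not reported here, though counts include it. Alternatives covered the Ct threshold, a minimum of 15 or 20 assays per cell, the amount added, the runs fitted, Gapdh scaling and leaving out each run.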

Additional observations from a re-analysis of the deposited data

Results flagged for a closer look

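The opposition of Bhlhe40 and Notch1 was singled out because the test of the difference itself passed between the groups: the natural log odds ratio of detection in the same cell was lower in Tcrd-/- DN1d than in B6 DN1d by 2.91 (difference -2.91, adjusted p = 0.0485, limma), at -3.49 against -0.03, -0.60 and -1.09 in the B6 runs. In the mutants 6 of the 9 cells with Bhlhe40 lacked Blk. The test used the same SE for every pair and did not model counting error. With the pairs stratified by the number of other assays detected, the difference was -2.87 (adjusted p = 0.0192). With a Ct below 20 as detection it was -1.35 (adjusted p = 0.695), and over assays found in 5% to 95% of cells the adjusted p was 0.109.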

How the results depend on the processing

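Against B6 DN1d, the 26 assays higher in detection became 13 among cells with 20 or more assays detected, and, in restrictions chosen after the data were seen, 5 among cells with Blk and 0 among cells without it. Higher mean levels numbered 11 among cells with 20 or more assays. The 2 assays higher in level where detected became 6 with Ct below 20 as detection, 1 among cells with 20 or more assays, 0 with only the runs of the compared groups, 1 relative to Gapdh, and 0 to 10 as single runs were left out. The 2 pairs lower in co-detection became 1 with Ct below 20, 0 among cells with Blk and 0 to 2 as single runs were left out, while 1 pair was higher when stratified by assays detected and 8 over assays in 5% to 95% of cells. The share of Smo with minus without Gzma was 47.8 points over all cells and 18.4 among cells with Blk. The direction was reversed for Cd163l1 among cells with Blk (-0.0800 on the logit scale), and among cells without Blk for Smo (-0.0886), Ccr9 (-0.40), Tox (-0.16), Tcf7 (-0.87), Notch1 (-0.0888), Vg2-Jg1 (-0.37) and Mcm2 (-0.93), none of which passed. The cause was not tested, though fewer cells enter each restriction. Other values kept their direction and side of the threshold, apart from 141 values of single assays and pairs that no longer passed and 8 that newly did. As single runs were left out, higher and lower calls in detection against DN2 ranged over 14 to 15 and 17 to 18, and the detection calls of Bcl11b, Ccr9, Cd163l1 and Il17re against B6 DN1d were lost without Rag1-/- cKit- run 1, those of Cd163l1 and Il17re also without run 2, and that of Mcm2 without run 3. The runs of Tcrd-/- DN1d and DN2 alone leave no residual degrees of freedom, so that fit was not run. No paired analysis was possible because Tcrd-/- DN1d and B6 DN2 have 1 run each and run numbers are only names. With 86 cells of 1 run, depth limits splits with few cells on 1 side, such as 9 without Blk.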
